A study of Mus musculus with 6 samples.

Results

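Fully-grown mouse oocytes at the germinal vesicle stage were compared between Uba3 cKO and control animals for the 10 genes of the mitochondrial transcription machinery: Polrmt, Tfam, Tfb1m, Tfb2m, Tefm, Mterf1a, Mterf1b, Mterf2, Mterf3 and Mterf4. The genes were taken by symbol from a table of 28738 Ensembl gene IDs. All 10 were present, and all 10 passed the level filter that kept 17450 genes for testing. The tested libraries were 3 from oocytes labelled Uba3 cKO, a conditional knockout of the gene for a subunit of the NEDD8-activating enzyme (NEDD8 is a ubiquitin-like protein), and 3 from oocytes labelled control, each from a pool of about 150 oocytes. Both groups share the strain label C57/Bl6/N;129SvEv7. The labels do not state the driver of the deletion, the deleted part of Uba3, the age of the animals or the number of animals behind each pool.

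Mitochondrial DNA is transcribed from both of its strands into long RNAs that are then cut into messenger, ribosomal and transfer RNAs. POLRMT, a single-subunit polymerase related to those of bacteriophages, needs TFAM, which bends the promoter and also packages the genome, and TFB2M, which opens the DNA. TEFM keeps the polymerase moving, and proteins of the MTERF family bind mitochondrial nucleic acids and act on termination, on transcript levels and on ribosome assembly. Growing oocytes accumulate very large numbers of mitochondrial genomes, and the mature egg passes them on to the embryo. The series title links NEDD8 conjugation to mitochondrial transcription in the oocyte.

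Every level is a normalized log2 value from the deposited table, which gives no read depth. The targeted gene stood at 10.03, 10.16 and 10.36 in Uba3 cKO libraries 1, 2 and 3, against 11.37, 11.46 and 11.34 in control libraries 1, 2 and 3. Uba3 was thus lower in every Uba3 cKO library, by 2.31-fold (log2 difference -1.21, SE 0.10, adjusted p = 2.07e-05, limma). Oocyte markers were abundant, with a summed level (log2 of the summed linear values) of 18.64 to 18.79 in Uba3 cKO and 18.80 to 18.97 in control libraries. The Uba3 cKO sums were all below the control sums, and of 13 oocyte markers 1 was called higher and 2 lower. For this and the marker counts that follow, the share over all tested genes was 5.64% called higher and 2.5% called lower (adjusted p under 0.05, limma). Markers of other ovarian cells were also present, with summed levels of 14.35 to 14.67 in Uba3 cKO and 14.53 to 14.96 in control libraries for granulosa and cumulus genes, of which 2 of 16 tested were called higher and 1 lower. The highest were Nr5a2 (mean 12.16 in Uba3 cKO and 12.04 in control), Inha (12.02 and 12.42) and Inhbb (11.60 and 12.28). Foxl2 was low (4.73 and 4.84), and Ptx3 and Tnfaip6 fell under the level filter. The 10 theca and stroma markers moved with the group. Their summed level was 10.61 to 10.82 in Uba3 cKO and 11.01 to 11.55 in control libraries, and 6 of the 10 were called lower. Blood and immune markers summed to 8.42 to 8.56 in Uba3 cKO and 8.79 to 8.84 in control libraries, with 2 of 5 called lower. Summed endothelial markers overlapped, at 11.86 to 12.05 in Uba3 cKO and 11.83 to 11.96 in control libraries, with 1 of 5 called lower. That sum was carried by Pecam1 (mean 11.30 in both groups) and Tek (10.23 in Uba3 cKO and 10.01 in control). For 3 of the 5 the groups did not overlap, against 27.9% of all tested genes. Of these 3 markers, Tie1 (-0.59, adjusted p = 0.0031, limma) and Cdh5 (-0.14) were lower and Tek (0.21) was higher.

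Several genes of the machinery share sequence with other genes, which bears on how each value can be read. Mterf1a and Mterf1b, both on chromosome 5, are near-identical copies. Their coding sequences differ at 11 of 1137 aligned bases, an identity of 99%. Their most divergent stretch of 60 coding bases follows, with the 3 positions that differ in capitals, to show how little separates the reads of the pair.
Mterf1a: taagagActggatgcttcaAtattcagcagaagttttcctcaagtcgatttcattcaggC
Mterf1b: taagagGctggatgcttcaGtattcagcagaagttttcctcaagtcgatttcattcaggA

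The protein of this pair is best known for binding one place in the mitochondrial genome, inside the gene for a leucine transfer RNA that follows the ribosomal RNA genes, where it blocks passing polymerases. That gene, mt-Tl1, is shown from the GENCODE M21 transcript sequence. Capitals mark letters that were searched for as only a part of the termination site known from the human genome. The bases beside the capitals were not compared with the human site, so a match of the whole site was not tested.
mt-Tl1: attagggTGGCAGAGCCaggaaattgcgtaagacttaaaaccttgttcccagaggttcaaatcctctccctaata

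Windows of 100 bases were compared between the longest transcript of each gene and all other annotated transcripts. The share found in another gene was 0% for Polrmt, Tfam, Tfb1m and Tefm. It was 22.2% for Mterf1a and 43.5% for Mterf1b, each with the other. It was 37.3% for Tfb2m, shared with the pseudogene Gm1818, which is not analysed here. It was 58.6% for Mterf4, which overlaps Sned1 on the opposite strand, and 20.4% for Mterf2, which overlaps Tmem263 on the opposite strand. For Mterf3 it was 1.82%. With windows of 50 bases the share stayed at 0% for Polrmt and Tefm and was 0.0729% for Tfam. It was 3.29% for Tfb1m, 9.38% for Mterf3, 32.1% for Mterf1a and 61.3% for Mterf1b. For Tfb2m, Mterf2 and Mterf4 it was 39.6%, 23.1% and 59.3%. How the counting handled strand and reads with several matches is not stated in the labels. The values of Mterf1a, Mterf1b, Mterf2, Mterf4 and Tfb2m are therefore uncertain.

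Among the 10 genes, Polrmt fell in Uba3 cKO oocytes and the other 9 did not pass the test. A gene was called at an adjusted p under 0.05 over all genes tested. At that threshold the calls made up 8.14% of the tested genes, with 5.64% higher and 2.5% lower in Uba3 cKO, so 1 call in 10 is near the share over the whole table. The median log2 difference was -0.11 over the 10 genes and -0.006 over all tested genes, and the median size of a difference was 0.11 and 0.10. The difference was below 0 for 7 of the 10 and for 51.8% of all tested genes. For Polrmt and Mterf1a, 2 of the 10, the Uba3 cKO and control values were fully separate, against 27.9% of all tested genes.

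**Figure D1:**
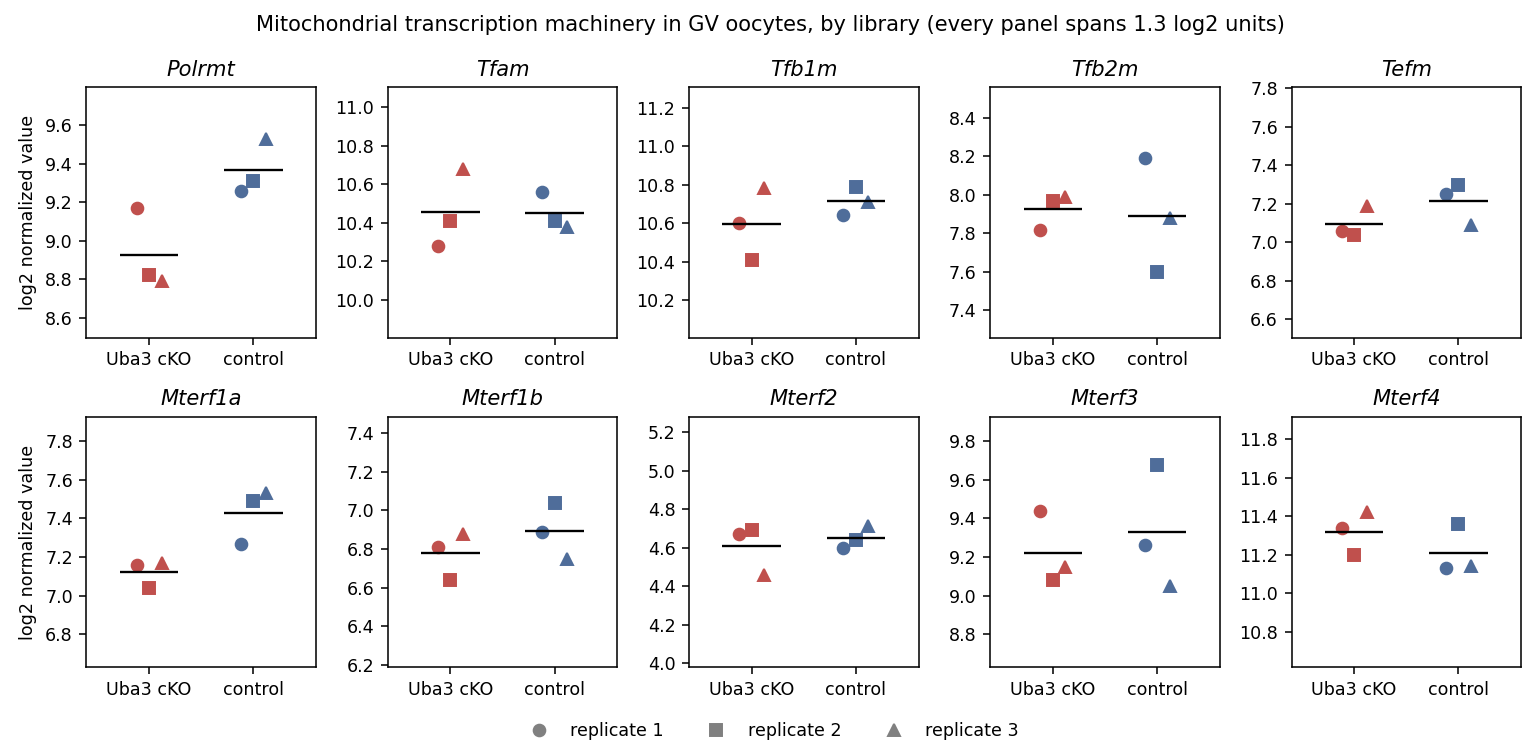
Log2 normalized value (y axis) of each gene of the machinery in 3 Uba3 cKO (red, left) and 3 control (blue, right) libraries; symbols mark the replicate number, bars are group means, and every panel spans the same range of log2 units. Polrmt and Mterf1a have groups that do not overlap, and the means of Tfam are both 10.45.

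Polrmt, the RNA polymerase itself, had log2 values of 9.17, 8.82 and 8.79 in Uba3 cKO libraries 1, 2 and 3, against 9.26, 9.31 and 9.53 in control libraries 1, 2 and 3. Every Uba3 cKO library was below every control library, with Uba3 cKO replicate 1 close to control replicate 1. The mean was 8.93 ± 0.21 in Uba3 cKO and 9.37 ± 0.15 in control oocytes (SD, n = 3 each). The log2 difference was -0.44 (SE 0.12, 95% interval -0.70 to -0.18), 1.36-fold lower (adjusted p = 0.0417, limma). Of all tested genes, 1.21% had a lower difference, and Polrmt ranked 1220 by p among the tested genes.

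The call of Polrmt was close to the threshold. It ended without Uba3 cKO replicate 2 (adjusted p = 0.109), Uba3 cKO replicate 3 (0.157), control replicate 2 (0.0812) or control replicate 3 (0.189), with differences between -0.36 and -0.56 over all 6 libraries left out in turn. The Polrmt transcript is rich in G and C, at 60.5% against a median of 48.4% over tested genes. After each library was corrected for transcript length and GC content, the log2 difference was -0.38 (adjusted p = 0.0524). In bulk samples fewer cells of a type and less RNA per cell cannot be told apart. The summed level of the theca and stroma markers was lower in the same Uba3 cKO libraries, at 10.61 to 10.82, against 11.01 to 11.55 in control libraries. The part of these markers in the Polrmt difference was not tested.

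The genes for the other 2 proteins of the initiation complex did not pass the test. Tfam, the packaging and promoter-bending factor, had 10.28, 10.41 and 10.68 in Uba3 cKO libraries 1, 2 and 3, against 10.56, 10.41 and 10.38 in control libraries 1, 2 and 3. The groups overlapped and both means were 10.45. The 95% interval of the log2 difference ran from -0.24 to 0.25, that is from 0.849-fold to 1.19-fold.

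Tfb2m, the promoter-melting factor, had 7.82, 7.97 and 7.99 in Uba3 cKO libraries, against 8.19, 7.60 and 7.88 in control libraries. The Uba3 cKO values lay inside the wider spread of the controls (SD 0.09 in Uba3 cKO and 0.29 in control, n = 3 each). Its log2 difference was 0.03 (95% interval -0.25 to 0.32, adjusted p = 0.91, limma).

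Within a library, the log2 level of Polrmt relative to that of Tfam was -1.11, -1.59 and -1.89 in Uba3 cKO libraries 1, 2 and 3, against -1.30, -1.10 and -0.85 in control libraries 1, 2 and 3. Uba3 cKO replicate 1 lay among the controls. The group difference was -0.45, with p = 0.2 in an exact two-sided permutation test in which 0.1 is the smallest value possible. Relative to Tfb2m, Polrmt stood at 1.35, 0.85 and 0.80 in Uba3 cKO libraries, against 1.07, 1.70 and 1.65 in control libraries, a difference of -0.48 (exact two-sided permutation p = 0.2). Adjusted over these 2 comparisons, both p-values stayed at 0.2. With 3 against 3 libraries this test cannot pass 0.05 whatever the values, so the ratios are given as a description.

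The promoter of Polrmt is shown because Polrmt was the 1 gene called, with the promoter of Tfam beside it. Both are the 250 bases before the start of the gene in RefSeq (GRCm38.p6), on the minus strand, at chr10:79746582-79746831 for Polrmt and chr10:71238045-71238294 for Tfam. Capitals mark 2 short motifs found on either strand, the core GCGCANGC of NRF1, a transcription factor known for activating nuclear genes of mitochondria, and the core CCGGAAG of GABP and other ETS factors.
Polrmt: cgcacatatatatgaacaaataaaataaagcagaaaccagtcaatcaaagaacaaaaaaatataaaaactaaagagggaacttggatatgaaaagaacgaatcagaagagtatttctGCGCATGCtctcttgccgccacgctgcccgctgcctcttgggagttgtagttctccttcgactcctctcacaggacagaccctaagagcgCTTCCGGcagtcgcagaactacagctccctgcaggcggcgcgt
Tfam: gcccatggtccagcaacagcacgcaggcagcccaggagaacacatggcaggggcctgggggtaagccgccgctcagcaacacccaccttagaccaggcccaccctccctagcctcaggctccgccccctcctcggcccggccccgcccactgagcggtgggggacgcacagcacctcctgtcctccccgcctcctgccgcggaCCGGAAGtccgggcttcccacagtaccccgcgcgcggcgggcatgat

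The NRF1 core was found in 1 of 9 genes of the machinery with a RefSeq promoter, Polrmt, where it starts at position -133, against 9.38% of all genes in the table of promoters, each searched over the same length. The GABP core was found in 5 of the 9, Polrmt, Tfam, Tefm, Mterf1a and Mterf1b, against 7.83% of all genes. Mterf1a and Mterf1b are near-identical copies, so their matches may not be separate. The shares over all genes were not limited to genes that passed the level filter, as the members did. The motifs were chosen with the sequences known, no motif overlapped another, and a match describes letters only. Of the factors themselves, Nrf1 was at 11.08, 11.14 and 11.12 in Uba3 cKO libraries and 11.19, 10.69 and 10.99 in control libraries. Gabpa, the DNA-binding subunit of GABP, was at 8.84, 9.05 and 9.11 in Uba3 cKO libraries and 8.76, 8.67 and 8.61 in control libraries. Neither was called, at adjusted p of 0.46 and 0.0852 in limma, although the 2 groups of Gabpa did not overlap.

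Tefm, the elongation factor, had 7.06, 7.04 and 7.19 in Uba3 cKO libraries, against 7.25, 7.30 and 7.09 in control libraries. The groups overlapped through control replicate 3, and the log2 difference was -0.11 (95% interval -0.33 to 0.10). Tfb1m, a relative of Tfb2m whose protein methylates the small ribosomal RNA of mitochondria, had 10.60, 10.41 and 10.78 in Uba3 cKO libraries, against 10.64, 10.79 and 10.71 in control libraries. Uba3 cKO replicates 1 and 2 lay below every control and replicate 3 lay among the controls, and the log2 difference was -0.12 (95% interval -0.35 to 0.11). The coding sequences of Tfb1m and Tfb2m are identical at 62% of aligned bases, and the levels of these 2 relatives lay far apart.

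Of the MTERF family, Mterf1a came nearest to a call. It had 7.16, 7.04 and 7.17 in Uba3 cKO libraries 1, 2 and 3, against 7.27, 7.49 and 7.53 in control libraries 1, 2 and 3. No Uba3 cKO library reached the lowest control, control replicate 1. The log2 difference was -0.31 (SE 0.10, 95% interval -0.53 to -0.09, adjusted p = 0.0863, limma). It was called without control replicate 1 (-0.39, adjusted p = 0.0381) and with libraries weighted by quality (-0.33, adjusted p = 0.0306), and adjusted p over the other alternatives reached 0.277.

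Its copy Mterf1b had 6.81, 6.64 and 6.88 in Uba3 cKO libraries, against 6.89, 7.04 and 6.75 in control libraries, and these overlapped (log2 difference -0.12, 95% interval -0.34 to 0.11). Because reads can be divided between the copies in more than one way, their linear values were also added, a choice made after their values were seen. The summed log2 level was 8.0, 7.85 and 8.03 in Uba3 cKO libraries, against 8.09, 8.28 and 8.19 in control libraries. The sum did not overlap between the groups and differed by -0.23 on the log2 scale, given as a description.

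Mterf4, whose protein works with the RNA methyltransferase NSUN4 in assembling mitochondrial ribosomes, had 11.34, 11.20 and 11.42 in Uba3 cKO libraries, against 11.13, 11.36 and 11.14 in control libraries. The groups overlapped, and the log2 difference was 0.11 (95% interval -0.11 to 0.32). Sned1, the overlapping gene, was lower in level and also not called (0.15, adjusted p = 0.601, limma).

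Mterf3, known in mice as a repressor of mitochondrial transcription, had the largest standard error of the 10, with 9.44, 9.08 and 9.15 in Uba3 cKO libraries and 9.26, 9.68 and 9.05 in control libraries. Each group spanned much of the range of the other, and the log2 difference of -0.11 had the widest interval (-0.42 to 0.21). Mterf2, which also binds mitochondrial DNA, was near the low end of the tested genes, with 4.67, 4.69 and 4.46 in Uba3 cKO and 4.60, 4.64 and 4.71 in control libraries. Its log2 difference was -0.04 (95% interval -0.18 to 0.10). Tmem263, which overlaps it, had a level far higher and a difference of 0.06.

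**Figure D2:**
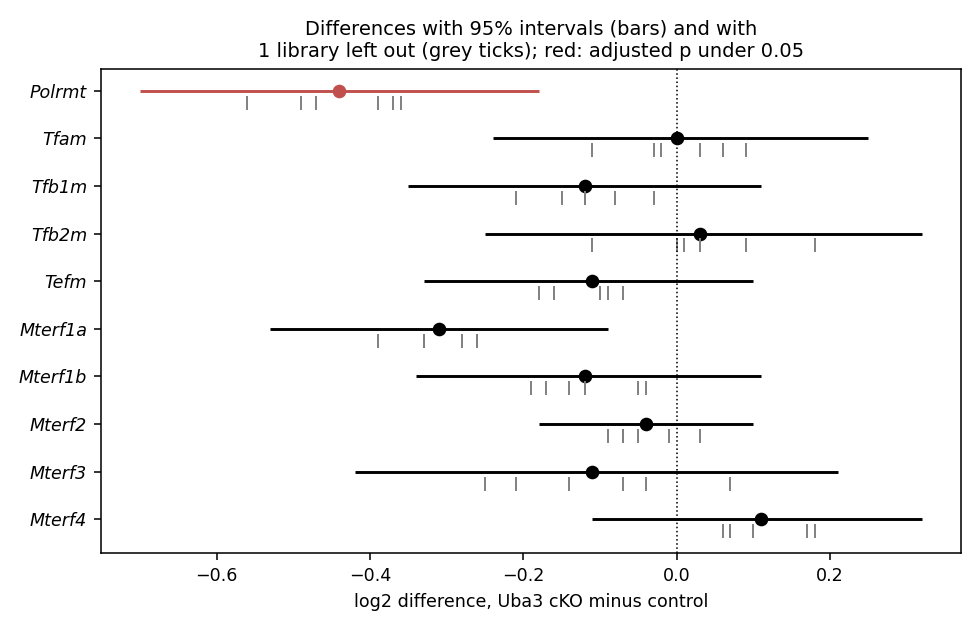
Log2 difference, Uba3 cKO minus control (x axis), of each gene of the machinery, with its 95% limma interval (bar) and the differences with each of the 6 libraries left out in turn (grey ticks). The interval of Polrmt, -0.70 to -0.18, and that of Mterf1a, -0.53 to -0.09, lie below 0; the interval spans 0 for the other 8.

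For 8 of the 10 genes the 95% interval lay within 0.5 log2 units of 0 on both sides, so changes larger than that are outside the intervals of all but Polrmt and Mterf1a. These limits hold on the scale of the deposited values, whose transform is not named. The standard errors of the 10 genes ran from 0.07 for Mterf2 to 0.15 for Mterf3, against a median of 0.10 over all tested genes. Other genes at low levels also had small standard errors, 0.05 for Ppargc1a and 0.03 for mt-Co2. Whether the transform narrows differences of low genes was not tested, so Mterf2 is not read as the best bounded gene.

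The machinery was expressed at unequal levels. Per kilobase of the longest annotated transcript, on the linear scale, Mterf4 and Tfb1m were highest. Mterf4 averaged 826 ± 61 in Uba3 cKO and 767 ± 71 in control oocytes, and Tfb1m averaged 643 ± 80.7 in Uba3 cKO and 694 ± 36.7 in control oocytes (SD, n = 3 each). The ranges of these 2 genes overlapped in control libraries and not in Uba3 cKO libraries, and Mterf4 was the higher in each of the 6 libraries.

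Tfam averaged 339 ± 48.4 per kilobase in Uba3 cKO and 336 ± 22.7 in control oocytes, below Tfb1m in every library. Mterf3 averaged 256 ± 34.4 in Uba3 cKO and 278 ± 63.3 in control oocytes, and its range overlapped that of Tfam in control libraries only. Polrmt came next with 114 ± 17.4 in Uba3 cKO and 155 ± 16.1 in control oocytes. In control oocytes the lowest Polrmt value was above the highest Tefm value, while in Uba3 cKO oocytes the ranges of Polrmt (103 to 134) and Tefm (101 to 112) overlapped. Tfb2m averaged 99.5 ± 6.33 in Uba3 cKO and 98.4 ± 20.1 in control oocytes.

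Tefm and Tfb2m overlapped in level in both groups, and Tfb2m and Mterf1b in control libraries only. Mterf1a was below Mterf1b per length, and Mterf2 was lowest, at 15.6 ± 1.36 in Uba3 cKO and 16 ± 0.619 in control oocytes. The order depends on the length used. Per kilobase of coding sequence, Tfam stood above Tfb1m in control oocytes, Tfb2m above Polrmt, and Mterf1a above Tefm and Mterf1b, while Mterf4 stayed highest and Mterf2 lowest. In Uba3 cKO oocytes Mterf1a (123) was just below Tefm (126) on that scale.

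**Figure D3:**
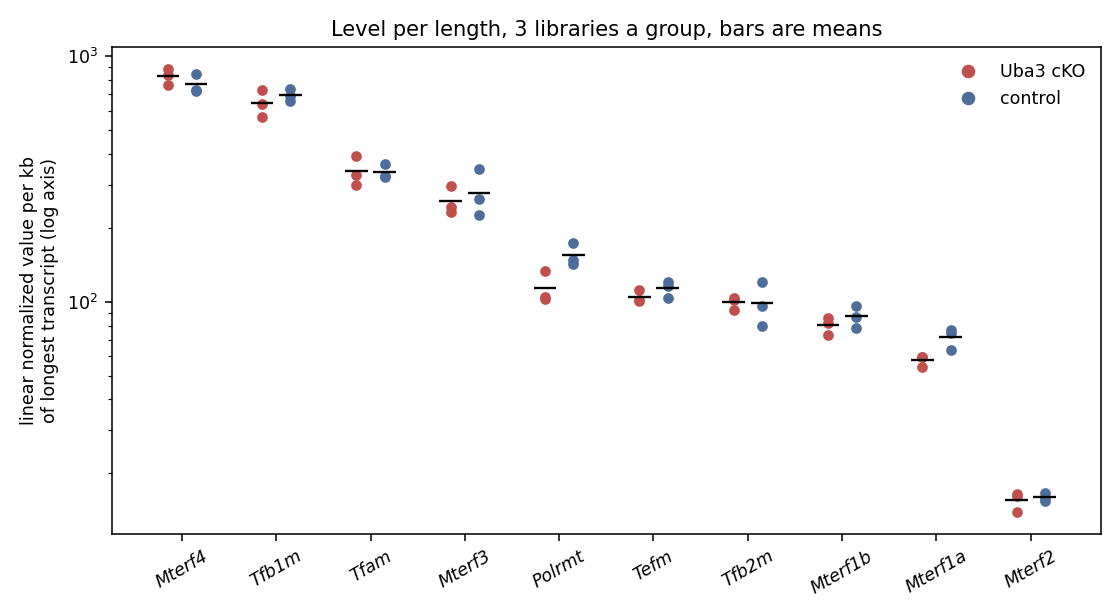
Linear normalized value per kilobase of the longest annotated transcript (log y axis) of each gene in Uba3 cKO (red) and control (blue) libraries, ordered by the control mean; points are libraries and bars are means. Mterf4 averages 826 in Uba3 cKO and 767 in control oocytes, and Mterf2 15.6 and 16.

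The 3 genes whose pattern over the 6 libraries was most like that of Polrmt were Amdhd2, Pkmyt1 and Flot1, out of 14048 named genes. Likeness was the root mean square difference between log2 profiles centred on their own means, which was 0.080 for Amdhd2, 0.081 for Pkmyt1 and 0.082 for Flot1. All 3 lie on chromosome 17, and Polrmt lies on chromosome 10. Their log2 differences were -0.38 for Amdhd2, -0.31 for Pkmyt1 and -0.39 for Flot1, of which that of Flot1 was called (adjusted p = 0.0325, limma). Because the 3 genes were picked by likeness over the same libraries, differences near that of Polrmt follow from the choice.

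None of 5 protein partners of the machinery was called, against 8.14% of all tested genes. Mrpl12, a ribosomal protein reported to bind POLRMT, had a log2 difference of -0.02, and Lonp1, the protease that degrades TFAM, had 0.15. Nsun4, the partner of MTERF4, had -0.22, and Clpx, a protein unfoldase, had -0.17. Mtres1, an RNA-binding protein of mitochondria, had -0.16. The groups did not overlap for Clpx and Mtres1, 2 of the 5, against 27.9% of all tested genes.

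Of 20 genes for replication and maintenance of mitochondrial DNA, 1 fell (5%, against 2.5% of all tested genes lower) and 19 were not called, with a median log2 difference of -0.10. The gene that fell was Twnk, the replicative helicase, with 7.92, 8.18 and 8.13 in Uba3 cKO libraries 1, 2 and 3, against 8.67, 8.30 and 8.55 in control libraries 1, 2 and 3. All Uba3 cKO libraries were below all controls, nearest to control replicate 2. The difference was -0.43 (SE 0.12, adjusted p = 0.0407, limma). Its call ended without Uba3 cKO replicate 1 or 3 or control replicate 1 or 3 (adjusted p up to 0.167).

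Of 23 genes for mitochondrial RNA processing and decay, 1 rose, 1 fell and 21 were not called, with a median of -0.08. The share called was 8.7%, near the 8.14% of all tested genes. Trmt10c, a subunit of the RNase P that cuts the long transcripts at transfer RNAs, had 10.48, 10.33 and 10.60 in Uba3 cKO libraries, against 10.19, 10.16 and 9.89 in control libraries, and rose by 0.39 (SE 0.11, adjusted p = 0.0459, limma). Supv3l1, the helicase of the mitochondrial RNA degradosome, had 10.89, 10.86 and 10.96 in Uba3 cKO libraries, against 11.16, 11.30 and 11.18 in control libraries, and fell by 0.31 (SE 0.09, adjusted p = 0.04996, limma). Both calls lay at the edge of the threshold. That of Trmt10c ended without Uba3 cKO replicate 1 or 3 or control replicate 2 or 3, and that of Supv3l1 without any single library except control replicate 1 (adjusted p up to 0.215 and 0.164).

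Of 12 tested nuclear regulators of mitochondrial biogenesis, 2 rose and 10 were not called, with a median of 0.09. The share called was 16.7%, against 5.64% of all tested genes called higher. Yy1, a zinc-finger transcription factor, had 9.68, 9.70 and 9.71 in Uba3 cKO libraries, against 9.48, 9.21 and 9.27 in control libraries, and rose by 0.37 (SE 0.10, adjusted p = 0.0391, limma). Ppargc1a, a coactivator, stood at 4.32 to 4.39 in Uba3 cKO and 4.14 to 4.24 in control libraries and rose by 0.17 (adjusted p = 0.0393, limma). The call of Yy1 ended without any single library except control replicate 1, and that of Ppargc1a without any of the 6 (adjusted p up to 0.151 and 0.125). Corrected for length and GC content, Ppargc1a differed by 0.10 (adjusted p = 0.345, limma). After that correction 3 genes of the list were called.

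**Figure D4:**
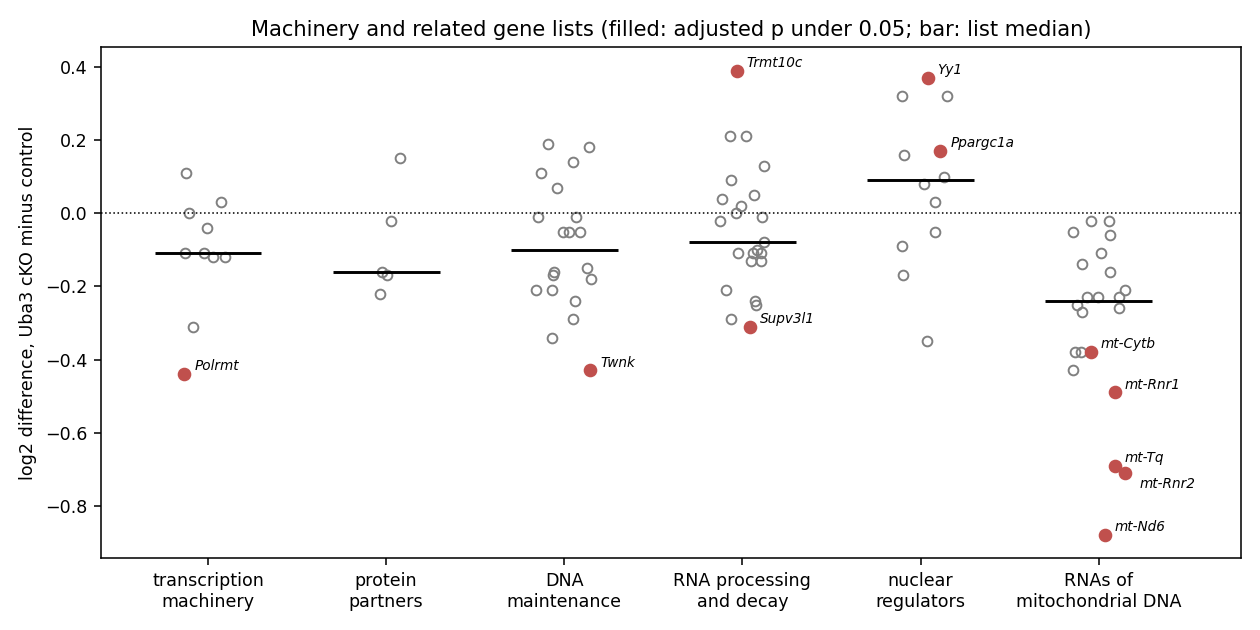
Log2 difference, Uba3 cKO minus control (y axis), of each tested gene in the machinery, 4 related lists and the RNAs of mitochondrial DNA; filled red points passed an adjusted p under 0.05, and bars are list medians. The median is -0.11 for the machinery and -0.24 for the RNAs of mitochondrial DNA, all 22 of which lie below 0.

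Of the RNAs that this machinery makes, 5 fell and 17 of those tested were not called. All 22 tested RNAs of mitochondrial DNA had a log2 difference below 0, with a median of -0.24, and the 5 called lower were 22.7% of them, against 2.5% of all tested genes. The other 10 annotated mitochondrial RNAs in the table fell under the level filter. Among them was mt-Tl1, at 1.61 to 1.65 in Uba3 cKO and 1.63 to 1.65 in control libraries. So was the messenger RNA mt-Atp6, with means of 2.35 in Uba3 cKO and 2.36 in control libraries. The tested mt-Co2 (3.41 and 3.42) and mt-Nd4l (3.80 and 3.82) were also low, each with a difference of -0.02. By contrast, mt-Co1 averaged 15.08 in Uba3 cKO and 15.36 in control libraries. Sequence shared with other genes was not examined for these RNAs, and the reason for the gap was not tested. The RNAs of mitochondrial DNA come from a few shared transcripts and are not independent of each other. Of the 16 tested RNAs annotated on the strand that carries most genes, 3 were called lower (median -0.24). Of the 6 annotated on the opposite strand, whose RNAs are made from the light-strand promoter, 2 were called lower (median -0.33). The labels do not state how the counting handled strand, so the values may include reads from the other strand. The difference between the strands was not tested.

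The ribosomal RNA mt-Rnr2 had 8.46, 8.58 and 8.53 in Uba3 cKO libraries 1, 2 and 3, against 9.22, 9.12 and 9.35 in control libraries 1, 2 and 3. It was 1.63-fold lower, with groups well apart (log2 difference -0.71, SE 0.10, adjusted p = 9.1e-04, limma). The smaller ribosomal RNA mt-Rnr1 had 7.02, 7.05 and 7.16 in Uba3 cKO libraries, against 7.59, 7.47 and 7.66 in control libraries (-0.49, SE 0.10, adjusted p = 0.00727, limma). Annotated on the opposite strand, mt-Nd6, which encodes a subunit of complex I, had 8.03, 8.39 and 8.71 in Uba3 cKO libraries, against 9.13, 8.99 and 9.64 in control libraries. Its difference was -0.88 (SE 0.18, adjusted p = 0.00786, limma), although Uba3 cKO replicate 3 came close to control replicate 2.

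The transfer RNA mt-Tq fell by 0.69 (SE 0.12, adjusted p = 0.00297, limma), and mt-Cytb, the cytochrome b gene, fell by 0.38 (SE 0.10, adjusted p = 0.0281, limma). The calls of mt-Rnr1, mt-Rnr2, mt-Nd6 and mt-Tq held with each of the 6 libraries left out in turn (adjusted p up to 0.0469, 0.00947, 0.046 and 0.0201). That of mt-Cytb ended without Uba3 cKO replicate 1 or 3 or control replicate 1 or 3 (adjusted p up to 0.143). Without control replicate 2, 8 mitochondrial RNAs were called. The correction for length and GC content gave 10 calls and library weights gave 14. No label says whether polyadenylated RNA was selected or ribosomal RNA depleted, which bears on the levels of mt-Rnr1 and mt-Rnr2, and transfer RNAs are shorter than many sequencing fragments.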

How the data were processed

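RNA sequencing libraries from 3 Uba3 cKO and 3 control oocyte pools were grouped by sample title. Tools listed in the submitters' processing notes are DESeq2, featureCounts, STAR and fastp, with the build GRCm39. The authors deposited log2 values, normalized between libraries by a transform the table does not name; the unit was read from the values. Depth is unknown, and no pseudocount was added. Symbols, lengths and GC content came from GENCODE M21 (GRCm38), which named 27660 IDs, with RefSeq synonyms for Mtres1 and Prorp.

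Genes with a linear value of 10 or more in at least 3 libraries were fitted with limma 3.58.1 (R 4.3.3), with an intensity trend and Benjamini-Hochberg adjustment over all 17450. Every adjusted p is from this fit unless another is named. The fit was checked on simulated data. Whether the pools came from different animals is not stated, and p-values measure only the spread between pools, which may be technical. Transcripts, promoters and coding sequences were compared in Python 3.11.15 with Biopython 1.88.

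Named were all 10 genes of the machinery, Uba3, all protein partners, called genes of the other lists and the 3 genes most like Polrmt; Nrf1, Gabpa and the genes that share sequence with the machinery were added after their values were seen. The members and lists were chosen with earlier results of these data known. Alternatives covered pseudocount, filter, scaling, variance model, library weights, replicate block and each library left out, and, chosen after seeing the data, a length and GC correction (98.5% of tested genes had both values).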

Additional observations from a re-analysis of the deposited data

How the results depend on the processing

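The number of called genes of the machinery was 1, and 0 without an intensity trend or after the length and GC correction, with or without the replicate block, 2 with library weights and 0 to 2 with 1 library left out. It stayed at 1 under the pseudocounts, both filters, both scalings and the replicate block alone, in which Polrmt had an adjusted p of 0.0376. The replicate numbers did not pair the libraries (correlations of deviations -0.085, -0.198 and -0.054 for the same numbers), so the block describes numbers only. The DNA maintenance list had 0 calls without the trend and after the correction with the replicate block, and 0 to 1 with 1 library left out. The RNA processing list had 0 calls without the filter, with median centring, with the replicate block and after the correction with that block, 1 with quantile normalization or without the trend, and 0 to 2 with 1 library left out. Library weights gave it 3 calls. The nuclear regulators had 0 calls without the filter, 1 with the stricter filter, with quantile normalization or with the replicate block, and 0 to 1 with 1 library left out. They had 3 calls with library weights, 3 after the length and GC correction, and 2 after that correction with the replicate block. The RNAs of mitochondrial DNA had 14 calls with library weights, 10 and 11 after the correction without and with the replicate block, and 4 to 8 with 1 library left out. Over all genes, 1421 were called, 2298 with library weights and 618 to 1637 with 1 library left out. Among uncalled genes the sign turned for Tfb2m (-0.11) and Mterf3 (0.07) without control replicate 2, Mterf2 (0.03) without Uba3 cKO replicate 3 and Mterf3 (0.06) with library weights; with 1 library left out Tfb2m ran from -0.11 to 0.18, Mterf2 from -0.09 to 0.03, Mterf3 from -0.25 to 0.07 and Tfam from -0.11 to 0.09. The differences of Polrmt relative to Tfam (-0.66 to -0.27) and Tfb2m (-0.68 to -0.36) stayed below 0. The cause of these shifts was not tested. Depth is unknown, so no counting error is given.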
